A study of Mus musculus with 24 samples.

Results

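The 36 genes described here are type I interferon response genes: transcription factors, sensors, antiviral effectors and protein modifiers that cells switch on after type I interferon. They were found by symbol in the raw count table, which holds 55421 gene identifiers, and 36 of 36 were matched. The counts are 3′ tags from the left brain hemisphere of 24 mice, and the design text gives 6 animals a group, 1 library each. Mice of both genotypes were 3 months old and received daily intraperitoneal injections of 100 µl over 4 days. The 4 groups of 6 animals were Nox2 knockout mice given lipopolysaccharide (LPS), Nox2 knockout mice given phosphate-buffered saline (PBS), wild type mice given LPS and wild type mice given PBS. LPS, the endotoxin that coats gram-negative bacteria, was an S-form preparation from Salmonella abortus equi at 1 µg per g body weight per day. Every animal has the strain label C57BL/6J, and the labels do not say how the knockout was made or whether the controls were littermates. The hemisphere was homogenised whole, so each count is a sum over neurons, glia, vessels, meninges and blood.

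Type I interferons bind the receptor pair IFNAR1 and IFNAR2, which activates the kinases JAK1 and TYK2. The complex ISGF3, of which STAT2 and IRF9 are parts, then binds the interferon-stimulated response element (ISRE) in the promoters of its target genes. In brain, microglia, vessel cells, astrocytes and neurons can all respond, and LPS is known to start interferon production through the adaptor TRIF (gene Ticam1) below Toll-like receptor 4 in myeloid cells.

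The libraries held 2340184 to 5256169 counts, and levels are given as CPM (counts per 1000000) on library sizes scaled by TMM factors of 0.988 to 1.01. Of 10 neuron markers on a list, 10 were detected in every group, and they summed to 6334 to 6776 CPM in knockout LPS, 7049 to 7314 in knockout PBS, 6248 to 6525 in wild type LPS and 6971 to 7319 in wild type PBS libraries. Cybb, the gene of Nox2, had a median of 71.6 CPM in knockout LPS, 66.4 in knockout PBS, 24.6 in wild type LPS and 1.42 in wild type PBS libraries. Every library labelled knockout, at 62.8 CPM or more, lay above every library labelled wild type, at 33.8 CPM or less. The labels thus part the libraries by Cybb level without exception. Since a 3′ tag says nothing of a disruption elsewhere in Cybb, these data do not show that the gene was disrupted. The word knockout stands for libraries with that label. In wild type LPS, replicates 1 and 2 were more like each other than like replicates 3 to 6. The chi-square of their counts per degree of freedom, higher for libraries less alike, was 1.83 between them, 2.88 to 4.74 between either and replicates 3 to 6, 1.72 to 3.10 among replicates 3 to 6 and 1.41 to 3.52 within the other groups, so the ranges overlap. Member calls that change without both libraries are given with and without them.

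Promoters were read for the members with the smallest p for LPS in wild type among those that hold an ISRE core. The windows are from RefSeq on GRCm38.p6, run from 250 bases before the transcript start to 50 after it, and are written in the direction of the gene. Capitals mark the ISRE core, spelled GAAA, any 2 bases and GAAA, or on the other strand TTTC, any 2 bases and TTTC. They are shown because the ISRE is the element that ISGF3 binds, and a match does not say which factor uses it.
Ifitm3 (chr7:141010695-141010994, minus strand): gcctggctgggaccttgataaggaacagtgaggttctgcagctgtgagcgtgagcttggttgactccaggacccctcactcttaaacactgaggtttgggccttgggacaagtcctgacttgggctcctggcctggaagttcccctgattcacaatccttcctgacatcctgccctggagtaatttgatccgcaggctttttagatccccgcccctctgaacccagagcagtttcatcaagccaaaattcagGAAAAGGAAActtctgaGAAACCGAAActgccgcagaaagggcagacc
Ifitm2 (chr7:140955912-140956211, minus strand): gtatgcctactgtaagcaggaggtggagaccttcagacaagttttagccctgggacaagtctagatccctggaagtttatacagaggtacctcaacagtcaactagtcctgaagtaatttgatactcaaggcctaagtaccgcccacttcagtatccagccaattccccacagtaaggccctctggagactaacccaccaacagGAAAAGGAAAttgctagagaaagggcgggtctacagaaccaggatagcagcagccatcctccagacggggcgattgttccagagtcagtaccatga
Trim30a (chr7:104465144-104465443, minus strand): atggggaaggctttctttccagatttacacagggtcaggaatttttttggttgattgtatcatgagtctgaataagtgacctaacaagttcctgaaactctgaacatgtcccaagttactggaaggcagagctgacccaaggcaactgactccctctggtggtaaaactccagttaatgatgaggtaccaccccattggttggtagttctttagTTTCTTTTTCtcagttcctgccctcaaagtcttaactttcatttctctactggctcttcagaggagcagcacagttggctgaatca
Bst2 (chr8:71537423-71537722, minus strand): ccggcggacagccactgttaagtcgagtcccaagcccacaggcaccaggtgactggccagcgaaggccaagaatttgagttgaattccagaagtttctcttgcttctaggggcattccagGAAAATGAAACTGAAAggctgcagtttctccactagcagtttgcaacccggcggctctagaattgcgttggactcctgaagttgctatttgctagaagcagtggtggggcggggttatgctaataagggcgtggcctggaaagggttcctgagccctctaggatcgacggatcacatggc
Ifih1 (chr2:62646206-62646505, minus strand): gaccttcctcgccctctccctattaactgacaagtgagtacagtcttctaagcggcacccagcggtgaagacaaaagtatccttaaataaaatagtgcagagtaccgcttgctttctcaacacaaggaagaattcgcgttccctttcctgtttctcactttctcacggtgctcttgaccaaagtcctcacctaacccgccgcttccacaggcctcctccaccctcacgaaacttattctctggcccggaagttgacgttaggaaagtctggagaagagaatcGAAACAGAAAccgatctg
Ifit3 (chr19:34583279-34583578, plus strand): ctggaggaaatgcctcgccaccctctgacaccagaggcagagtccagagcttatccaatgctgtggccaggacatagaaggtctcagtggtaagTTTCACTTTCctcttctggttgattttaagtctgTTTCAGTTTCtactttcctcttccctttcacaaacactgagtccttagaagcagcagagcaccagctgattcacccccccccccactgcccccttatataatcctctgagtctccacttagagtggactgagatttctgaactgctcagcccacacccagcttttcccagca
In Ifitm3 the cores covered bases 3 to 12 and 20 to 29 after the start, and in Ifih1 bases 33 to 42. In Ifitm2 the core began 46 bases before the start and in Trim30a 36 bases before it. Bst2 held overlapping cores that began 130 and 124 bases before the start, and Ifit3 held cores that began 156 and 122 bases before it.

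Promoters of members without an LPS call carried the same letters. Shorter stretches around the cores of Isg15, Ifit1 and Rsad2, chosen after their values were seen, are printed to set beside the promoters above.
Isg15 (chr4:156200855-156200916, minus strand): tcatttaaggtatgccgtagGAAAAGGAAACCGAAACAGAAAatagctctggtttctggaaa
Ifit1 (chr19:34640765-34640833, plus strand): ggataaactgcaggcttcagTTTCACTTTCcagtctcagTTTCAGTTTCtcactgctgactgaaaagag
Rsad2 (chr12:26456543-26456592, minus strand): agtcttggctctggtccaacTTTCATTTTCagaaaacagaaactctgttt
The Isg15 stretch holds 3 overlapping cores, the first of which began 78 bases before the start. A promoter window was found for 26 of the 36 members, in 29 windows. The ISRE core was present in 14 of these 26 members (53.8%), and in 3.99% of the 27025 genes with a window. The GAS core, the interferon gamma-activated element (TTCNNNGAA, the same on both strands), was present in 6 of 26 members (23.1%) and in 9.55% of all genes with a window. In Ifitm3 and Bst2 it overlapped an ISRE core. An ISRE core was held by 8 of 15 members called higher after LPS in at least 1 genotype and by 5 of 8 members called in neither. A match is a description of letters in this window, and no match says only that the letters are not in it.

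**Figure D1:**
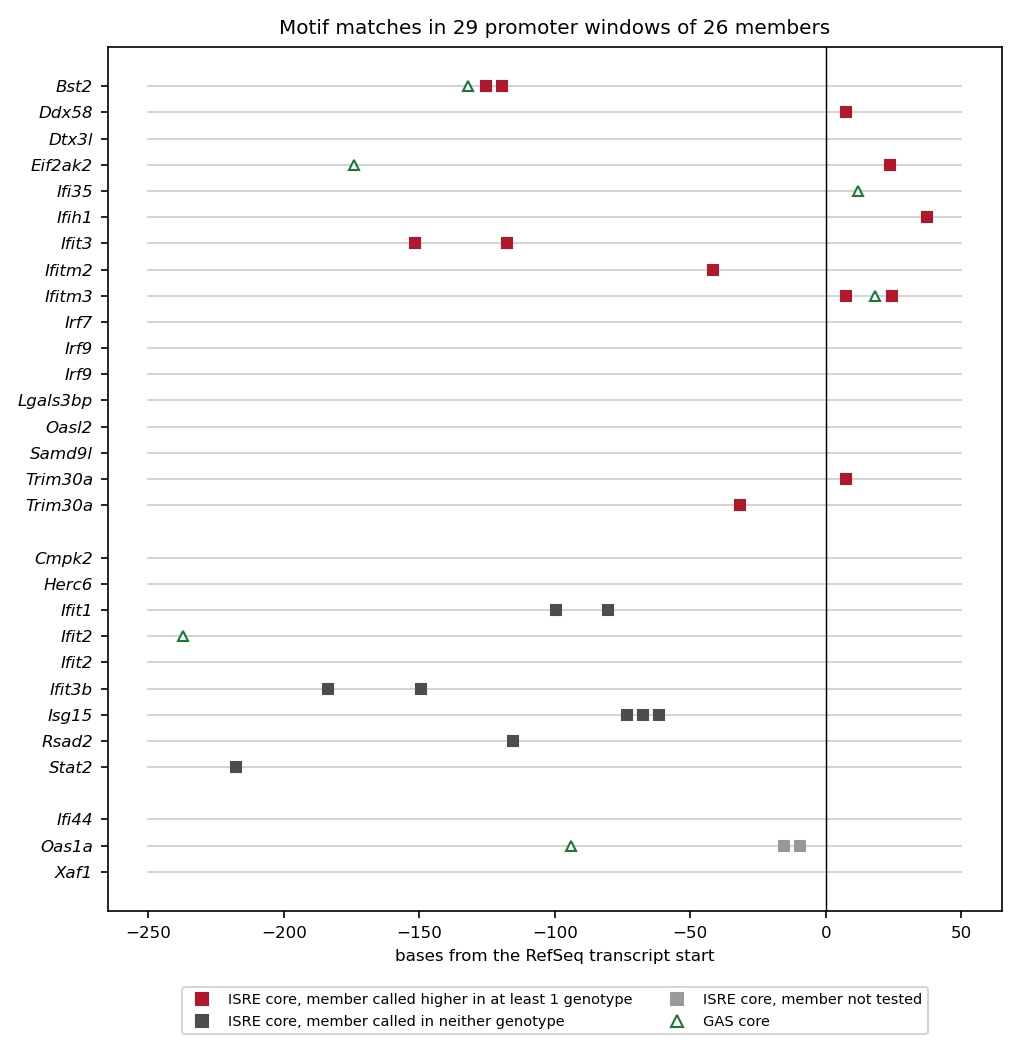
ISRE and GAS core matches in the 29 promoter windows of 26 members, against distance in bases from the RefSeq transcript start; each grey line is a window from 250 bases before to 50 after the start. Squares mark ISRE cores, coloured by whether the member was called after LPS, and triangles GAS cores; 14 members have an ISRE core, 5 of them among the 8 members called in neither genotype.

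After LPS, 17 members were called higher and 0 lower in knockout, and 17 higher and 0 lower in wild type. Of the 36 members, 29 passed the filter on low counts and were tested, and 7 were not (Zbp1, Oas1a, Oas2, Usp18, Mx1, Ifi44 and Xaf1). A gene, in the lists below too, can pass this filter through its LPS libraries alone. Ifi204 and Irf7 did so, with at most 2 and 9 counts in any PBS library. Their place among the tested members thus depended on their level after LPS. Over all 14380 genes tested with edgeR, 7.05% were called higher and 3.82% lower after LPS in knockout, and 10.9% higher and 7.12% lower in wild type. The median log2 fold change of the tested members was 0.77 in knockout and 0.82 in wild type, beside -0.0015 in knockout and -0.0088 in wild type over all genes tested. No tested member had a negative value with an unadjusted p under 0.05 in either genotype. With no filter on low counts, 20 of 36 members were higher in knockout and 19 of 36 in wild type. At that setting 1146 genes in all were higher in knockout and 1621 in wild type, and their share of all genes is not given. DESeq2 called 17 higher and 0 lower in each genotype. In such bulk tissue, more cells of a type and more RNA per cell cannot be told apart. The p-values set a difference of group means against the spread between these animals, estimated over all 4 groups.

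The members called higher were not the same in both genotypes. In both, 13 were called: Irf7, Ddx58, Ifi204, Oasl2, Ifit3, Ifitm2, Ifitm3, Bst2, Parp9, Dtx3l, Parp14, Trim30a and Lgals3bp. Eif2ak2, Ifi27, Ifi27l2a and Rtp4 were called in knockout and not in wild type, and Irf9, Ifih1, Samd9l and Ifi35 in wild type and not in knockout. The interaction (the LPS change of knockout minus the one of wild type) was not called for any member, so these lists do not show a difference between genotypes. Stat2, Ifit1, Ifit2, Ifit3b, Isg15, Herc6, Rsad2 and Cmpk2 were called in neither. The LPS and PBS libraries did not overlap in 14 members in knockout and in 9 in wild type, each with LPS above PBS. Over all genes tested, 4.21% lay without overlap above and 1.74% below in knockout, and 5.88% above and 2.08% below in wild type.

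**Figure D2:**
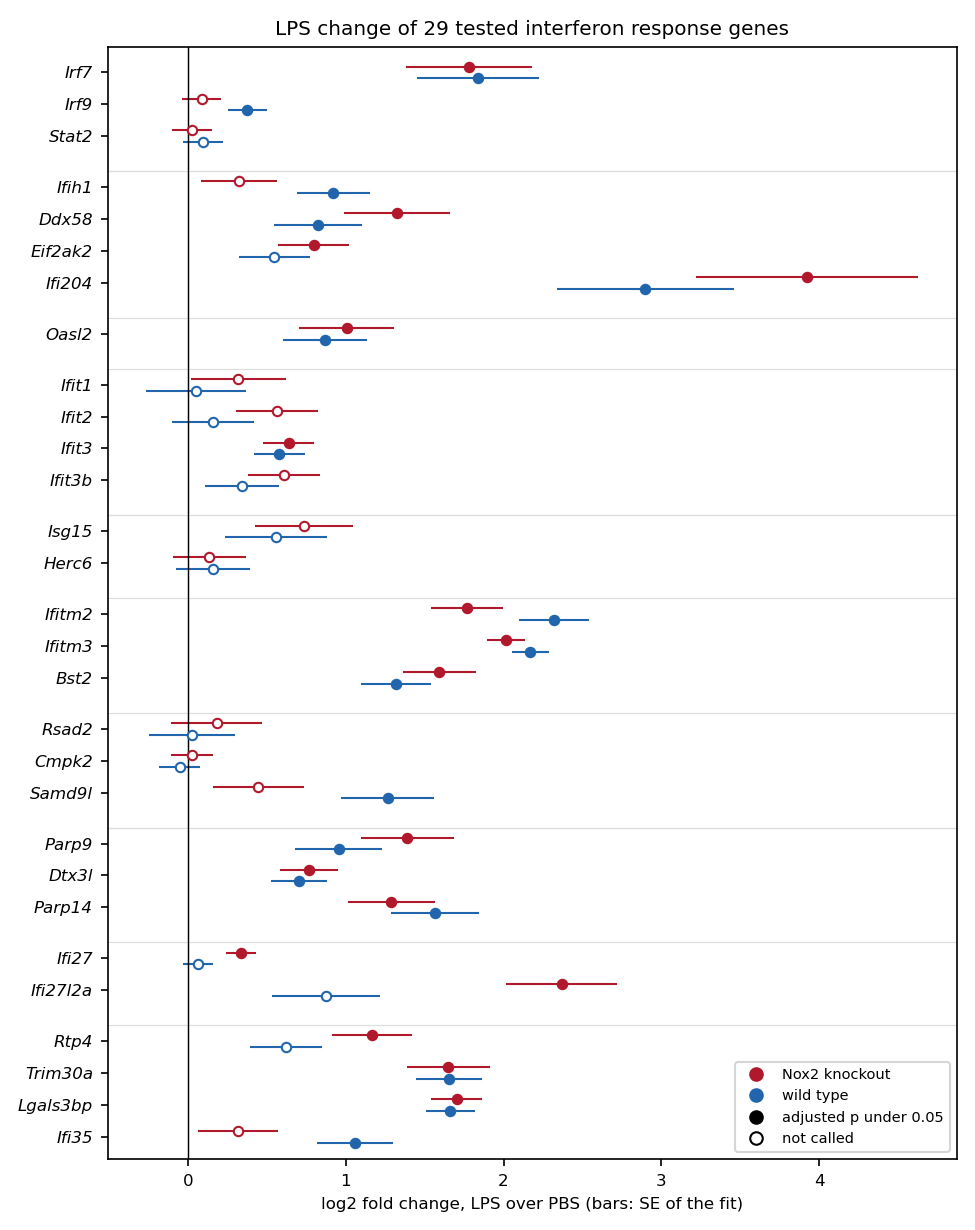
Log2 fold change of LPS over PBS for the 29 tested members, grouped by role, in knockout (red, upper of each pair) and wild type (blue, lower), with bars of 1 standard error of the edgeR fit and filled symbols for an adjusted p under 0.05. Ifi204 lies farthest right, at 3.93 in knockout and 2.90 in wild type, while Stat2, Rsad2 and Cmpk2 lie between -0.05 and 0.18.

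Membrane restriction factors rose together, with 3 of 3 members called in each genotype. Ifitm3, whose protein blocks the fusion of viruses with endosomal membranes, had 44.8, 58.1 and 73.1 CPM (lowest, median and highest library, as in all such triplets below) in knockout LPS and 12.7, 14.2 and 17.3 in knockout PBS libraries. In wild type it had 54.4, 70.1 and 82.3 CPM after LPS and 13.5, 14.8 and 19.4 after PBS. Every LPS library thus lay well above every PBS library of its genotype. Ifitm3 rose by 2.01 ± 0.12 on the log2 scale in knockout (SE, adjusted p = 3.35e-18) and by 2.17 ± 0.12 in wild type (adjusted p = 3.61e-20). Ifitm2, its neighbour with the same activity, had 5.46, 9.62 and 11.3 CPM in knockout LPS, 1.64, 2.46 and 4.44 in knockout PBS, 9.78, 13.1 and 16.7 in wild type LPS and 1.72, 2.48 and 3.17 in wild type PBS libraries. It rose by 1.77 ± 0.23 in knockout (adjusted p = 1.84e-08) and by 2.32 ± 0.22 in wild type (adjusted p = 1.32e-12), with no overlap in either.

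Bst2, or tetherin, which holds budding virions at the cell surface, had 8.34, 11.3 and 17.4 CPM in knockout LPS and 2.99, 3.59 and 6.47 in knockout PBS libraries, with no overlap. In wild type it had 7.49, 11.2 and 14.9 CPM after LPS and 2.72, 3.85 and 7.70 after PBS, where the lowest LPS library lay just under the highest PBS library. Bst2 rose by 1.59 ± 0.23 in knockout (adjusted p = 3.28e-07) and by 1.32 ± 0.22 in wild type (adjusted p = 6.16e-06). The Ifitm genes are near-identical in part. Of the 50-base stretches in the last 500 bases of their transcripts, 41.9% of those of Ifitm2 and 14% of those of Ifitm3 also occur in another gene, Gm45717 and Ifitm2 among them. How reads with several matches were counted is not given, so the split between Ifitm2, Ifitm3 and these relatives is uncertain.

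Among the transcription factors, Irf7 rose in both genotypes. Irf7 is the factor that drives further interferon production, and it had 2.7, 3.94 and 5.42 CPM in knockout LPS and 0, 1.33 and 2.07 in knockout PBS libraries, with no overlap. In wild type it had 1.63, 4.21 and 5.79 CPM after LPS and 0.629, 1.09 and 1.90 after PBS, and 1 LPS library, replicate 1, lay within the PBS range. The rise was 1.78 ± 0.40 in knockout (adjusted p = 0.000371) and 1.84 ± 0.39 in wild type (adjusted p = 0.000111). Irf9 and Stat2 encode parts of ISGF3. Irf9 stood at 0.09 ± 0.13 in knockout (95% interval -0.18 to 0.35) and rose by 0.38 ± 0.12 in wild type (adjusted p = 0.0274), a call that ended in 5 of 30 alternative fits, of which 24 left out 1 library each. The highest adjusted p, 0.102, came without wild type PBS replicate 2. Stat2 stood at 0.03 ± 0.13 in knockout (-0.24 to 0.29) and 0.10 ± 0.13 in wild type (-0.17 to 0.36). Exons of Irf9 overlap those of Rnf31 on the same strand and exons of Irf7 those of Phrf1 on the other. On the same strand, exons also overlap for Ifitm2 (Gm45717), Parp14 (Gm49730), Rtp4 (Gm45338) and Herc6 (Gm45193). On the other strand, exons of Eif2ak2, Usp18 and Ifi35 also overlap those of another gene. How reads in such overlaps were counted is not given, so counts of these members may be affected.

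Sensors of foreign nucleic acid were called for 3 of 4 tested members in each genotype. Ifi204, a DNA-binding member of the p200 family, was close to absent after PBS. It had 1.56, 3.29 and 3.56 CPM in knockout LPS, 0, 0.136 and 0.517 in knockout PBS, 1.80, 2.36 and 2.90 in wild type LPS and 0, 0.316 and 0.423 in wild type PBS libraries, and no LPS library overlapped a PBS library of its genotype. The sums were 71 counts in knockout LPS and 4 in knockout PBS libraries, and 52 in wild type LPS and 7 in wild type PBS libraries. Ifi204 rose by 3.93 ± 0.70 in knockout (adjusted p = 6.72e-09) and by 2.90 ± 0.56 in wild type (adjusted p = 1.23e-06). It was tested only because its LPS libraries passed the filter on low counts. Ifih1, or MDA5, a sensor of long double-stranded RNA, had 2.16, 4.56 and 7.37 CPM in knockout LPS, 2.33, 4.33 and 5.47 in knockout PBS, 5.55, 6.76 and 8.26 in wild type LPS and 2.55, 3.45 and 4.78 in wild type PBS libraries. Its groups overlapped across most of their range in knockout and not at all in wild type. The change was 0.33 ± 0.24 in knockout (adjusted p = 0.478, interval -0.18 to 0.83) and 0.92 ± 0.23 in wild type (adjusted p = 0.00225), and the interaction of -0.60 (interval -1.29 to 0.10) was not called (adjusted p = 0.577).

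Ddx58, or RIG-I, which detects short double-stranded RNA with a triphosphate end, rose by 1.32 ± 0.34 in knockout (adjusted p = 0.0028) and by 0.82 ± 0.28 in wild type (adjusted p = 0.0284). The wild type call ended in 5 of 30 alternatives, with the highest adjusted p, 0.11, without wild type LPS replicate 3. Eif2ak2, the kinase PKR that stops translation on double-stranded RNA, rose by 0.80 ± 0.23 in knockout (adjusted p = 0.0113) and stood at 0.55 ± 0.23 in wild type (adjusted p = 0.0826, interval 0.08 to 1.02). Without wild type LPS replicate 1 Eif2ak2 was called in wild type too (adjusted p = 0.0334). Zbp1, a sensor of Z-form nucleic acid, was too low to be tested in the main fit. With no filter on low counts edgeR called Zbp1 higher in both genotypes. The values were 2.82 in knockout (adjusted p = 0.00329) and 4.93 in wild type (adjusted p = 1.93e-05). It had 26 counts in knockout LPS and 3 in knockout PBS libraries, a ratio of 8.8 (exact 95% interval 2.7 to 45.4), and 22 counts in wild type LPS and 0 in wild type PBS libraries, which is at least 8.1-fold higher if the group is set to a floor of 3 counts in sum. Intervals and floors of this kind cover counting error only.

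Of the oligoadenylate synthetases, whose product activates RNase L, only the related Oasl2 was abundant enough to be tested. It rose by 1.01 ± 0.30 in knockout (adjusted p = 0.0157) and by 0.87 ± 0.27 in wild type (adjusted p = 0.0145). The knockout call ended without knockout LPS replicate 3 (adjusted p = 0.0601) or knockout PBS replicate 5 (0.0504), and the wild type call without wild type LPS replicate 4 (0.0532). Oas2 had 22 counts in knockout LPS, 11 in knockout PBS, 25 in wild type LPS and 18 in wild type PBS libraries, ratios of 2.03 (exact 95% interval 0.944 to 4.64) in knockout and 1.53 (0.804 to 2.99) in wild type. Oas1a had 6 counts in knockout LPS, 5 in knockout PBS, 8 in wild type LPS and 1 in wild type PBS libraries, and 56.1% of its 3′ stretches also occur in Oas1g, so its counts are uncertain.

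The IFIT genes, whose proteins bind foreign RNA and block its translation, lie together on chromosome 19 (34550694 to 34650009, GRCm38), and 1 of 4 was called in each genotype. That member was Ifit3. It rose by 0.64 ± 0.16 in knockout (adjusted p = 0.00396) and by 0.58 ± 0.16 in wild type (adjusted p = 0.00767), with 9.75, 11.3 and 13.2 CPM in knockout LPS, 4.91, 7.87 and 9.30 in knockout PBS, 8.66, 11 and 12.4 in wild type LPS and 5.45, 6.83 and 10.9 in wild type PBS libraries. The knockout groups did not overlap, whereas wild type PBS replicate 1, at 10.9 CPM, lay inside the wild type LPS range. Ifit1 had 1.56, 4.06 and 4.94 CPM in knockout LPS, 1.02, 3.18 and 5.04 in knockout PBS, 1.53, 3.25 and 4.23 in wild type LPS and 1.68, 2.56 and 5.71 in wild type PBS libraries. The highest library of Ifit1 in each genotype was a PBS library. Its change was 0.32 ± 0.30 in knockout (interval -0.31 to 0.94) and 0.05 ± 0.32 in wild type (-0.61 to 0.71). Ifit2 stood at 0.56 ± 0.26 in knockout (adjusted p = 0.181) and 0.16 ± 0.26 in wild type. Ifit3b stood at 0.61 ± 0.23 in knockout (adjusted p = 0.0792, and 0.0243 without knockout LPS replicate 4) and 0.34 ± 0.23 in wild type. Ifit3 shares 14.9% of its 3′ stretches with Ifit3b, so reads may have been split between them.

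Neither Isg15 nor Herc6 was called in either genotype. Isg15, the ubiquitin-like modifier, had 2.73, 3.83 and 5.85 CPM in knockout LPS, 1.91, 2.20 and 4.14 in knockout PBS, 1.89, 3.35 and 4.63 in wild type LPS and 0.765, 2.19 and 4.97 in wild type PBS libraries. Its medians were higher after LPS, but both pairs of groups overlapped. The change was 0.73 ± 0.31 in knockout (adjusted p = 0.131, interval 0.09 to 1.38) and 0.56 ± 0.32 in wild type (adjusted p = 0.249, interval -0.12 to 1.23). Without wild type PBS replicate 1 the wild type value was 0.94 (adjusted p = 0.0398). Herc6, the mouse ligase that attaches Isg15 to proteins, stood at 0.13 ± 0.23 in knockout and 0.16 ± 0.23 in wild type. Usp18, the protease that removes Isg15 and also restrains the receptor, had 46 counts in knockout LPS, 24 in knockout PBS, 36 in wild type LPS and 33 in wild type PBS libraries, and was not tested.

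Among the antiviral effectors, Samd9l was called in wild type, and Rsad2 and Cmpk2 were called in neither genotype. Samd9l, which restricts viral translation, had 1.95, 3.49 and 4.94 CPM in knockout LPS, 1.36, 2.51 and 3.81 in knockout PBS, 2.81, 4.98 and 6.2 in wild type LPS and 0.419, 2.32 and 2.73 in wild type PBS libraries. The wild type groups did not overlap and the knockout groups did. The change was 0.45 ± 0.29 in knockout (adjusted p = 0.393, interval -0.16 to 1.05) and 1.27 ± 0.29 in wild type (adjusted p = 0.000784). Rsad2, or viperin, which makes a chain-terminating nucleotide, stood at 0.18 ± 0.29 in knockout (interval -0.42 to 0.78) and 0.02 ± 0.27 in wild type (-0.54 to 0.59). Cmpk2, its neighbour on chromosome 12 and a mitochondrial nucleotide kinase, stood at 0.03 ± 0.13 in knockout (-0.25 to 0.31) and -0.05 ± 0.13 in wild type (-0.32 to 0.22). Those intervals for Cmpk2 leave room for a change of at most 0.32 on the log2 scale, while those for Rsad2 are wider. Mx1 had 14 counts in knockout LPS and 1 in knockout PBS libraries, a ratio of 14.2 (exact 95% interval 2.16 to 601). In wild type it had 4 counts in LPS and 3 in PBS libraries, a ratio of 1.47 (0.249 to 10.1). With no filter on low counts edgeR called Mx1 in knockout, at 3.06 (adjusted p = 0.0226), and not in wild type, at 0.42 (adjusted p = 0.906). Besides Zbp1 and Mx1, no member below the filter gained an LPS call at that setting.

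**Figure D3:**
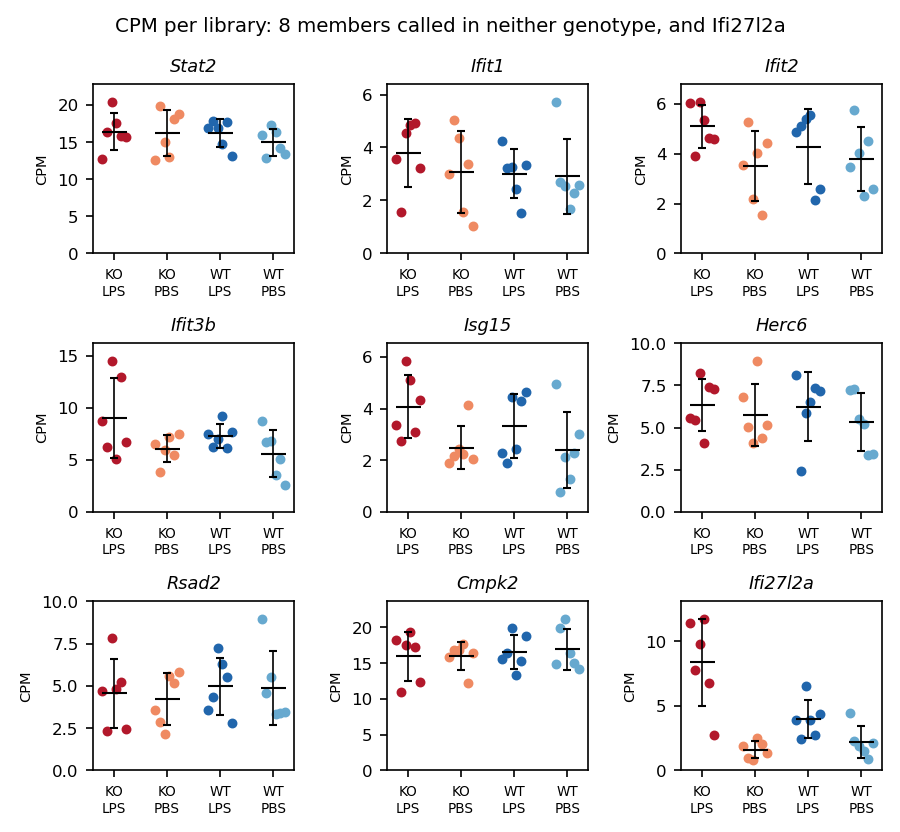
CPM in each of the 24 libraries for the 8 members called in neither genotype and for Ifi27l2a, with groups along the x axis; points are libraries and the bars show the mean and SD of 6 libraries. The LPS and PBS points of each of the 8 members overlap in both genotypes, and the highest Ifit1 and Rsad2 points of wild type, 5.71 and 8.94 CPM, come from a PBS library.

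The ADP-ribosylation and ubiquitin partners were called in 3 of 3 members in each genotype. Parp14, a mono-ADP-ribosyltransferase, had 3.51, 6.32 and 8.66 CPM in knockout LPS, 1.34, 2.62 and 4.14 in knockout PBS, 3.77, 7.09 and 8.69 in wild type LPS and 0.849, 2.41 and 2.98 in wild type PBS libraries. The groups overlapped in knockout, by the lowest LPS library, and not in wild type. Parp14 rose by 1.29 ± 0.28 in knockout (adjusted p = 0.000398) and by 1.57 ± 0.28 in wild type (adjusted p = 1.1e-05). Dtx3l, a ubiquitin ligase that works as a complex with PARP9, had 7.89, 9.31 and 11.4 CPM in knockout LPS, 3.36, 5.75 and 7.36 in knockout PBS, 8.14, 9.48 and 13.2 in wild type LPS and 4.30, 6.27 and 7.45 in wild type PBS libraries, with no overlap in either genotype. It rose by 0.77 ± 0.18 in knockout (adjusted p = 0.00225) and by 0.71 ± 0.18 in wild type (adjusted p = 0.00264). Parp9 rose by 1.39 ± 0.29 in knockout (adjusted p = 0.000306) and by 0.96 ± 0.27 in wild type (adjusted p = 0.00797). Parp9 and Dtx3l overlap on opposite strands of chromosome 16 only near their starts (35938470 to 35939151). The 3′ tags of each gene belong to its other end, away from the overlap. With no stated strand setting, any reads inside the overlap cannot be told apart.

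The remaining members were genes of other or less defined roles. Lgals3bp, a secreted glycoprotein that binds galectin 3, had 24.1, 29.6 and 35.9 CPM in knockout LPS, 7.91, 8.61 and 11.6 in knockout PBS, 25.7, 33.4 and 38.9 in wild type LPS and 4.74, 9.36 and 16.4 in wild type PBS libraries, with no overlap in either genotype. It rose by 1.70 ± 0.16 in knockout (adjusted p = 7.58e-12) and by 1.66 ± 0.15 in wild type (adjusted p = 2.39e-12). Rtp4, a chaperone of membrane receptors, rose by 1.17 ± 0.25 in knockout (adjusted p = 0.000486) and stood at 0.62 ± 0.23 in wild type (adjusted p = 0.051), where 7 of 30 alternatives called it (lowest adjusted p 0.0264). Rtp4 was called in wild type, at 0.74, without wild type LPS replicates 1 and 2 (adjusted p = 0.0278). Ifi35, a cytosolic protein that binds Nmi, had 2.78, 3.92 and 5.35 CPM in knockout LPS, 1.90, 3.32 and 4.32 in knockout PBS, 3.90, 5.68 and 9.00 in wild type LPS and 1.68, 2.92 and 4.72 in wild type PBS libraries, and the groups overlapped in both genotypes. Its change was 0.32 ± 0.25 in knockout (adjusted p = 0.525, interval -0.21 to 0.84) and 1.06 ± 0.24 in wild type (adjusted p = 0.00068). Ifi44 and Xaf1, an antagonist of the apoptosis inhibitor XIAP, were not tested. Ifi44 had 53, 28, 42 and 37 counts, and Xaf1 57, 32, 47 and 38 counts, in knockout LPS, knockout PBS, wild type LPS and wild type PBS libraries.

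**Figure D4:**
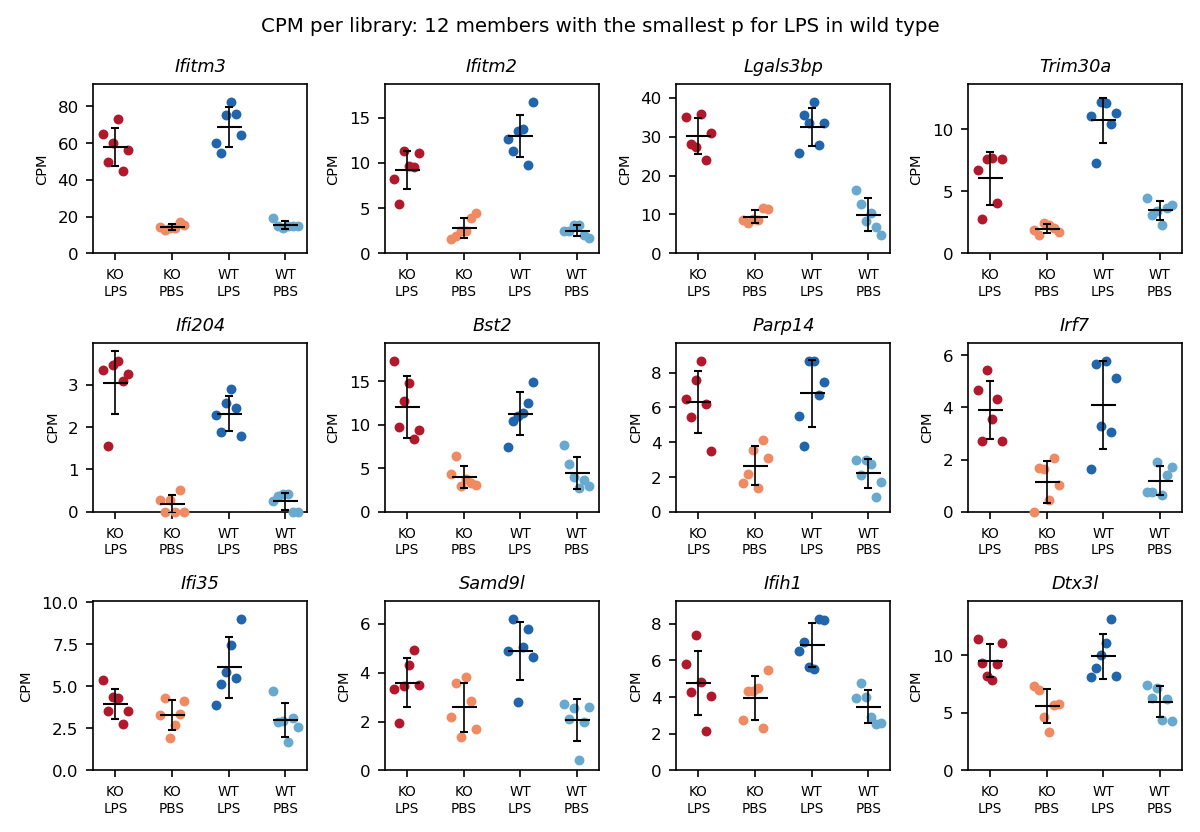
CPM in each of the 24 libraries for the 12 members with the smallest p for LPS in wild type, with groups along the x axis; points are libraries and the bars show the mean and SD of 6 libraries. LPS points lie above all PBS points of the same genotype for Ifitm3, Ifitm2, Lgals3bp, Trim30a, Ifi204 and Dtx3l in both genotypes, while Ifi35 overlaps in both.

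Between genotypes after LPS, 1 member was higher and 1 lower in knockout, beside 0.264% of all genes tested called higher and 0.786% lower. The higher member was Ifi27l2a, a short membrane protein of the IFI27 family. It had 2.7, 8.78 and 11.7 CPM in knockout LPS and 2.42, 3.88 and 6.55 in wild type LPS libraries, with a further 0.815, 1.64 and 2.47 in knockout PBS and 0.849, 2.03 and 4.47 in wild type PBS libraries. Of the 6 knockout LPS libraries, 5 lay above the highest wild type LPS library and replicate 6 lay near the lowest. Ifi27l2a was higher in knockout by 1.07 ± 0.27 after LPS (adjusted p = 0.0307). The call ended in 9 of 30 alternatives, each of which dropped at least 1 LPS library, and the highest adjusted p, 0.0981, came without knockout LPS replicate 4. Without both wild type LPS replicates 1 and 2 the difference was 0.93 (adjusted p = 0.0597). After LPS it rose by 2.37 ± 0.35 in knockout (adjusted p = 1.68e-07) and stood at 0.87 ± 0.34 in wild type (adjusted p = 0.0621, interval 0.16 to 1.59), a value that 8 of 30 alternatives called. Without wild type LPS replicates 1 and 2 it was called in wild type, at 1.01 (adjusted p = 0.0373). After PBS the difference was -0.43 ± 0.41 (adjusted p = 0.825), and the interaction was 1.5 ± 0.49 (interval 0.47 to 2.52, adjusted p = 0.293). Ifi27, another gene of the family on chromosome 12, rose by 0.33 ± 0.09 after LPS in knockout (adjusted p = 0.0128) and stood at 0.06 ± 0.09 in wild type (interval -0.13 to 0.26).

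The lower member was Trim30a, a ubiquitin ligase that restrains Toll-like receptor signalling in mouse. It had 2.73, 7.13 and 7.64 CPM in knockout LPS, 1.44, 1.99 and 2.45 in knockout PBS, 7.28, 11.2 and 12.2 in wild type LPS and 2.31, 3.53 and 4.47 in wild type PBS libraries. Of the 6 wild type LPS libraries, 5 lay above every knockout LPS library. Trim30a was lower in knockout by 0.78 ± 0.18 after LPS (adjusted p = 0.0197), and the call ended without knockout LPS replicate 2 or 5 or wild type LPS replicate 3 or 4 (adjusted p 0.0595 to 0.0699). Without wild type LPS replicates 1 and 2 it was lower by 0.87 (adjusted p = 0.00457). After PBS the value was of like size, -0.77 ± 0.28, and was not called (unadjusted p = 0.00741, adjusted p = 0.382). After LPS Trim30a rose by 1.65 ± 0.26 in knockout (adjusted p = 1.83e-06) and by 1.66 ± 0.21 in wild type (adjusted p = 9.76e-09), and the interaction was -0.01 ± 0.34 (interval -0.71 to 0.70).

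The other tested members gave no call between genotypes. The libraries of both genotypes overlapped in each of the 29 members, after LPS (0.264% of all genes tested lay without overlap above and 0.389% below) and after PBS (0.229% above and 0.188% below). After LPS, 6 members had an unadjusted p under 0.05. The uncalled among them were Ifih1, Ifitm2, Ifitm3 and Ifi35, with the knockout lower in each. Of the 29 tested members, 14 had a positive value there, and the median was -0.03. No share of all genes at an unadjusted p under 0.05 is given, so such counts, also those below, are not read as a result. Ifitm3 stood at -0.23 ± 0.09 (adjusted p = 0.272), and without wild type LPS replicates 1 and 2 it was called lower, at -0.34 (adjusted p = 0.0217). Ifitm2 stood at -0.47 ± 0.16 (adjusted p = 0.179) and Ifi35 at -0.61 ± 0.23 (adjusted p = 0.214). After PBS, 0 members were called by edgeR or by DESeq2, beside 0.0417% of all genes tested called higher and 0.0904% lower, and 2 had an unadjusted p under 0.05, Ddx58 at -0.78 ± 0.35 and Trim30a. The interaction called 0 members with either tool, beside 0.0% of all genes tested called higher and 0.00695% lower, the lower call being Cybb alone. Ifi27, Ifi27l2a, Samd9l and Ifi35 had an unadjusted p under 0.05 there, Samd9l at -0.82 ± 0.41 (interval -1.68 to 0.04) and Ifi35 at -0.74 ± 0.35 (-1.47 to -0.02). The intervals were not computed from the F-test, so one can hold 0 beside a p just under 0.05. Without wild type LPS replicates 1 and 2, Trim30a and Ifitm3 were the members lower in knockout after LPS and no member was higher. Markers of other cells differed between genotypes after LPS as well, beside 0.786% of all genes tested called lower. Lower in knockout were 4 of 12 of endothelium, 2 of 12 of microglia (Cx3cr1 and Sall1), 2 of 9 of monocytes and border macrophages (Lyz2 and Vim) and 1 of 10 of astrocytes (Slc1a3). After PBS, 1 of 12 endothelial markers, Ly6c1, was lower in knockout, by 0.41 ± 0.08 (adjusted p = 0.0141), beside 0.0904% of all genes tested. The marker lists hold no other call between genotypes, and their part in the genotype values of the members was not tested. With 6 animals a group, intervals of this width do not show that the genotypes respond alike.

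Single libraries differed in the level of many members at once. The summed level of the 36 members ranged from 286 to 385 CPM in knockout LPS (median 352), 180.5 to 207 in knockout PBS (median 203), 321 to 400.5 in wild type LPS (median 365) and 176 to 266 in wild type PBS libraries (median 201). The LPS and PBS ranges did not overlap in either genotype. Wild type PBS replicate 1 had the highest sum of the PBS libraries, at 266 CPM, and 22 of the 29 tested members lay above their group median in it. It held the highest wild type PBS value of Ifit1, Ifit3, Isg15, Rsad2 and Ifitm3. Knockout LPS replicate 2, with 2595387 counts the shallowest of its group, had the lowest sum after LPS, at 286 CPM, and 4 of 29 members above the group median. Wild type LPS replicates 1 and 2 summed to 322 and 321 CPM, against 355 to 400.5 CPM in replicates 3 to 6, with 5 and 10 of 29 members above the group median. Across the 6 libraries of a group, the median Pearson r over the 406 pairs of tested members was 0.306 in knockout LPS, 0.007 in knockout PBS, 0.101 in wild type LPS and 0.306 in wild type PBS libraries. These are descriptions over 6 libraries whose members share library and depth. Without wild type LPS replicates 1 and 2, 17 members were called higher after LPS in knockout and 19 in wild type.

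**Figure D5:**
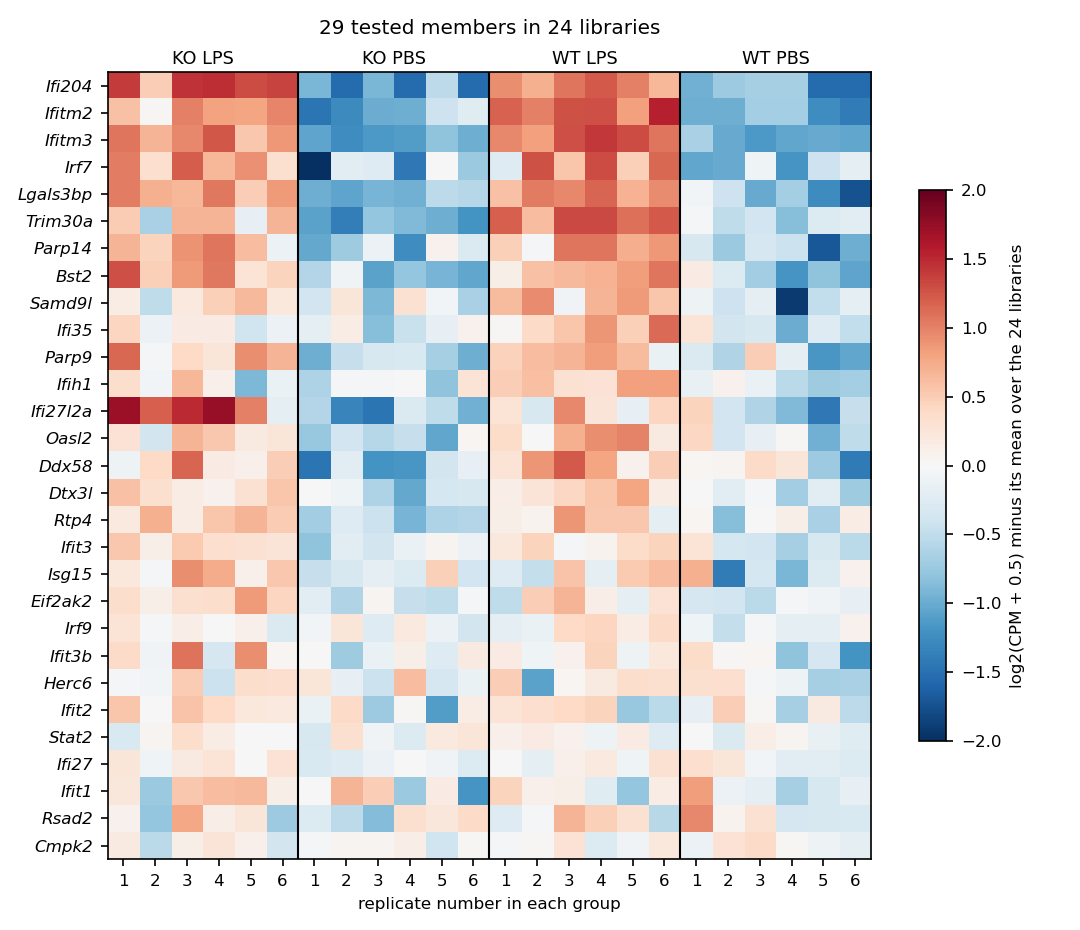
Level of the 29 tested members in the 24 libraries as log2(CPM + 0.5) minus the gene's mean over all libraries, with members as rows in descending order of LPS change in wild type and libraries as columns by group. Red marks levels above the mean and blue below; the upper rows are red in both LPS groups, the lowest rows show no such blocks, and wild type PBS replicate 1 is red in Ifit1 and Rsad2.

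No count was found in any library for 11 of 12 interferon genes listed. The interferon alpha genes on the list were Ifna1, Ifna2, Ifna4, Ifna5 and Ifna11. Pooled over the 92251219 counts of all 24 libraries, 0 counts allow up to 0.0325 CPM, and the bound for a single group is looser. The rule for reads with several matches is not given, so a 0 does not show that a gene was silent. Ifng had 2 counts in 1 knockout LPS library. These values limit polyadenylated tags in the hemisphere at the time of sampling only. Of 5 tested receptor genes, 3 were called higher after LPS in knockout and 4 in wild type, beside 7.05% and 10.9% of all genes tested. Ifnar2 rose by 0.41 ± 0.12 in knockout (adjusted p = 0.015) and by 0.87 ± 0.12 in wild type, and its partner Ifnar1 stood at 0.36 ± 0.13 in knockout (adjusted p = 0.0727) and rose by 0.37 ± 0.13 in wild type (adjusted p = 0.0456). The interferon gamma receptor chain Ifngr1 rose by 0.88 ± 0.11 in knockout and by 1.09 ± 0.10 in wild type, and Ifngr2 stood at 0.16 ± 0.12 in knockout and -0.05 ± 0.12 in wild type.

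Of 18 tested signalling and induction genes, 6 were higher in knockout and 7 in wild type, beside 7.05% and 10.9% of all genes tested. The kinases of the receptor, Jak1 and Tyk2, stood at -0.04 ± 0.05 and 0.14 ± 0.16 in knockout and at -0.08 ± 0.05 and 0.33 ± 0.16 in wild type, with no call. The genes that rose in both were Irf1, Irf5, Irf8, Myd88, Ikbke and Tmem173. Tmem173, the adaptor STING, rose by 1.46 ± 0.22 in knockout and by 1.62 ± 0.20 in wild type, and Irf8, a factor of myeloid cells, by 1.29 ± 0.16 in knockout and 1.47 ± 0.15 in wild type. Ikbke, a kinase that phosphorylates interferon regulatory factors, rose by 3.18 ± 0.63 in knockout and by 2.47 ± 0.47 in wild type. Irf3 and Tbk1, the factor and kinase that act below TRIF, were called in neither genotype.

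Negative regulators had 5 of 17 tested genes higher in knockout and 6 of 17 in wild type. Over all genes tested, 7.05% were higher in knockout and 10.9% in wild type, which are the shares for each list in this paragraph. Socs3, an inhibitor of cytokine receptors, rose by 1.66 ± 0.34 in knockout and by 2.56 ± 0.34 in wild type, and Ptpn6, a phosphatase of blood cells, by 1.96 ± 0.26 in knockout and 2.63 ± 0.24 in wild type. Ptpn6 was lower in knockout than in wild type after LPS, by 0.79 ± 0.17 (adjusted p = 0.00934), as was Ptpn1, by 0.31 ± 0.06 (adjusted p = 0.00798). Other interferon-stimulated genes, a list of 62 that are no members here, had 18 of 32 tested genes higher in knockout and 20 of 32 in wild type. Ifitm1 rose by 2.56 ± 0.31 in knockout and by 2.86 ± 0.28 in wild type, and Ly6a by 1.89 ± 0.10 in knockout and 1.78 ± 0.09 in wild type. B2m, the light chain of class I molecules, rose by 1.60 ± 0.08 in knockout and by 1.76 ± 0.08 in wild type. Ly6e rose by 0.54 ± 0.06 in knockout and by 0.69 ± 0.05 in wild type, and was lower in knockout after LPS by 0.24 ± 0.05 (adjusted p = 0.0101). Of 11 tested genes more responsive to interferon gamma, 7 were higher in each genotype, among them the guanylate-binding proteins Gbp2 (1.68 ± 0.33 in knockout and 1.75 ± 0.35 in wild type) and Gbp5 (2.00 ± 0.36 in knockout and 1.78 ± 0.35 in wild type). The class II gene H2-Eb1 stood at -0.0047 ± 0.29 in knockout, rose by 1.02 ± 0.26 in wild type and was lower in knockout after LPS by 0.98 ± 0.26 (adjusted p = 0.0426).

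Markers of other cell types moved with LPS beside the members. Over all genes tested, 7.05% were higher and 3.82% lower in knockout, and 10.9% higher and 7.12% lower in wild type. Monocyte and border macrophage markers were higher in 9 of 9 tested genes in each genotype, and the 11 on the list summed to 192 to 275 CPM in knockout LPS, 59.5 to 73.1 in knockout PBS, 273 to 409 in wild type LPS and 54.9 to 71.9 in wild type PBS libraries. Lyz2, Ccr2, Ms4a6c and Vim were among them. Vim made up most of the sums after PBS, with a median of 42.1 CPM in knockout and 44.0 in wild type. The median sums there were 62.4 CPM in knockout and 68.6 in wild type. After LPS, Vim had a median of 99.4 CPM in knockout and 134 in wild type, beside median sums of 241 and 325. Lyz2 and Vim were lower in knockout than in wild type after LPS. Neutrophil markers were higher in 7 of 7 tested genes, with sums of 92.8 to 395.5 CPM in knockout LPS, 9.00 to 42.9 in knockout PBS, 126 to 712 in wild type LPS and 9.44 to 20.7 in wild type PBS libraries. Microglia markers were higher in 8 of 12 genes in knockout and 9 of 12 in wild type, with 1 lower there, Siglech, and sums of 415 to 549.7 CPM in knockout LPS, 254 to 283 in knockout PBS, 488.5 to 628 in wild type LPS and 254 to 308 in wild type PBS libraries. Endothelial markers were higher in 11 of 12 genes in knockout and 12 of 12 in wild type, and 4 of them, Cldn5, Pecam1, Esam and Vwf, were lower in knockout than in wild type after LPS. Their sums were 597 to 686.5 CPM in knockout LPS, 296 to 369 in knockout PBS, 694 to 823 in wild type LPS and 325 to 362 in wild type PBS libraries. Markers of red blood cells were lower after LPS in 4 of 4 tested genes in each genotype. Of 10 astrocyte markers, 5 were higher in knockout and 7 higher and 1 lower in wild type. Of 10 neuron markers, 3 were lower in knockout and 5 in wild type, and of 10 oligodendrocyte markers 2 were higher and 4 lower in each genotype. Lymphocyte markers, mostly too low to be tested, summed to 4.32 to 25.0 CPM in knockout LPS, 2.16 to 4.44 in knockout PBS, 5.39 to 13.5 in wild type LPS and 2.52 to 3.64 in wild type PBS libraries. No marker of monocytes, microglia or endothelium was at 0 in every library of a group, and 1 neutrophil marker was at 0 in wild type PBS. The part of these cell types in the changes of the members was not tested.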

How the data were processed

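QuantSeq 3′ mRNA libraries were made from 100 ng total RNA of each left hemisphere, per the labels. The authors deposited raw whole-number counts per gene. The submitters' processing notes name STAR 2.7.3a and featureCounts (Subread 2.0.0) beside bcl2fastq, DESeq2 1.26.0 and R 3.6.1, and the build mm10 (GRCm38). No release of the annotation, strand setting or rule for reads with several matches is given in the sources used here. A 3′ count measures tags at the end of the transcript, so it is not divided by length, and levels are not compared between genes.

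The members, the lists and the tests were chosen with earlier results of these data known. Of 24 libraries, 24 were matched to their labels by column name. Genes that passed edgeR's filterByExpr by group (minimum count 10) were fitted, 14380 in all, with TMM scaling, 1 mean per group and the quasi-likelihood F-test (edgeR 4.0.16, limma 3.58.1, R 4.3.3), with Benjamini-Hochberg adjustment within each comparison and a call at an adjusted p under 0.05. Fold changes are log2, with Wald standard errors and 95% intervals from the quasi-likelihood dispersion. The intervals use a t quantile on 20 residual degrees of freedom, which is not the reference of the F-test. LPS was set against PBS within each genotype, and knockout against wild type after each treatment. The interaction was tested too. On simulated counts the fit was tested before use. All members may be named; library values are given for members called between genotypes and the 12 with the smallest p for LPS in wild type, and also for Ifit1, Ifit3 and Isg15, chosen after their values were seen. Ligands, receptors and signalling genes may all be named, and of each other list the 4 genes with the smallest p for LPS in wild type and any called between genotypes; not every such gene is named. Alternatives were DESeq2 1.42.0, its size factors, no filter, only the libraries compared, a replicate block, each library left out, and wild type LPS replicates 1 and 2 left out together. A gene of the signalling list is not reported here singly. Motifs and transcript ends were read with Python 3.11.15 from RefSeq promoters and GENCODE transcripts of GRCm38.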

Additional observations from a re-analysis of the deposited data

Results flagged for a closer look

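The 29 tested members and the summed level of the 36 members were examined in each of the 4 groups of 6 libraries, which makes 120 sets. In 10 of them, each of a single member, 1 library lay farther from the others than Dixon's 95% limit allows, and chance gives about 1 in 20. In knockout LPS these were Ddx58 in replicate 3 (7.59 CPM, above its group), Eif2ak2 in replicate 5 (7.41 CPM, above) and Ifi204 in replicate 2 (1.56 CPM, below). In knockout PBS, replicate 5 was above its group for Isg15 (4.14 CPM) and below it for Cmpk2 (12.2 CPM). In wild type LPS, Trim30a was low in replicate 2 (7.28 CPM), which is 1 of the 2 libraries more like each other than like the rest of their group. In wild type PBS, replicate 1 was above its group for Ifit1 (5.71 CPM), Ifit3 (10.9 CPM) and Ifitm3 (19.4 CPM), and replicate 4 was below it for Samd9l (0.419 CPM). Wild type PBS replicate 1 had the highest summed level of the 36 members among the PBS libraries, and without it 20 members were called higher after LPS in wild type.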

How the results depend on the processing

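The members called higher after LPS numbered 16 to 18 in knockout and 14 to 20 in wild type when single libraries were left out (14 without wild type LPS replicate 4 and 20 without wild type PBS replicate 1), and between genotypes after LPS 0 to 1 were higher and 0 to 1 lower. Without wild type LPS replicates 1 and 2 together, 17 were higher after LPS in knockout and 19 in wild type, and 0 were higher and 2 lower in knockout after LPS. Over the members' single values, 4261 alternatives gave the same call and direction, 21 gained a call, 26 lost it and 0 reversed. Over all genes tested, leaving out single libraries gave 925 to 1057 higher and 392 to 588 lower after LPS in knockout, 1395 to 1658 and 800 to 1121 in wild type, 19 to 74 and 53 to 215 between genotypes after LPS, 6 to 15 and 7 to 20 after PBS, and 0 to 5 and 1 to 15 for the interaction. Between genotypes after LPS, where the count was 38 higher and 113 lower, no filter gave 97 and 196 and leaving out wild type LPS replicates 1 and 2 gave 177 and 384. After PBS, with 6 and 13, no filter gave 43 and 45, DESeq2 11 higher, only the libraries compared 16 higher, and leaving out both libraries 15 and 21. For the interaction, with 0 and 1, no filter gave 28 and 39, DESeq2 1 and 24, and leaving out both libraries 84 and 165. The causes were not tested. Replicate numbers were not taken to pair the animals in the main fit, and the values here do not settle whether they do. Of 36 pairs with the same number in 2 groups, 2 had a correlation of deviations over 0.1 (range -0.0764 to 0.164). The own number gave the highest correlation in 13 of 36, where numbers without meaning would give about 1 in 6. A replicate block gave 17 members higher after LPS in knockout and 18 in wild type, 1 higher and 1 lower between genotypes after LPS, and over all genes 71 and 202 after LPS, 22 higher after PBS, and 3 and 5 for the interaction. Depth limits the 7 of 36 members below the filter on low counts, which were not tested.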
